A study of Rattus norvegicus with 10 samples.

Results

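Genes that type I interferon induces were followed in the hypothalamus of 10 male Wistar rats, 1 Affymetrix rat expression array per rat. The 9 genes were Isg15, Ifit2, Ifit3, Irf7, Mx1, Mx2, Oas1a, Usp18 and Bst2, and every probe set that the array annotation assigns to 1 of them alone was taken: 11 of the 20826 probe sets that name a single gene, among 31042 in all. Ifit2 and Mx2 had a pair of probe sets each. All 10 rats received powdered feed for 2 days from 3 weeks of age. For 8 days thereafter 5 rats received solid chow (C group, Chow 1 to Chow 5) and 5 rats stayed on powdered feed (P group, Powder 1 to Powder 5), so that the groups differed in food texture, and all were 4 weeks old when dissected under isoflurane. The values are log2 signals, and a difference of 1 is a doubling. Each difference is the C mean less the P mean, and a negative one is lower on chow.

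Interferons are secreted proteins that a cell releases when it senses viral nucleic acid. They bind a receptor pair on neighboring cells, kinases of the JAK family are activated, and a factor that contains IRF9 switches on a common set of genes through a short promoter motif, the interferon-stimulated response element. In the brain, microglia, endothelial cells, astrocytes and neurons can all respond, and low tonic expression of some of these genes occurs without infection. Irf7 is a transcription factor that amplifies the response. Mx1 and Mx2 are antiviral GTPases, Oas1a makes the oligoadenylates that activate RNase L, Ifit2 and Ifit3 bind RNA or associate with proteins that do, and Bst2, tetherin, holds budding virions at the cell membrane. Isg15 is a ubiquitin-like modifier, and Usp18 removes it from proteins and dampens receptor signaling.

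The promoter motif is shown because it is the feature by which genes of this set are known to be switched on together. RefSeq promoter windows of the GRCr8 build were matched for 5 of the 9 genes, Bst2, Ifit3, Irf7, Mx1 and Oas1a, and the 250 bases before each start were searched on both strands for the core of the response element, taken as GAAA, any 2 bases and GAAA again. The letters were found in 4 of the 5, against 3.41% of all 33469 promoters of this length. Bst2 and Oas1a each held overlapping copies that share bases. The 30 bases around a match are given 5′ to 3′ on the strand of the gene, with the match in capitals; in Ifit3 and Irf7 it lies on the opposite strand and reads in reverse complement.
Bst2 (chr16:18255073-18255102, minus strand): ccaggaaaatGAAACTGAAAggtggcagca
Oas1a (chr12:41330421-41330450, plus strand): tcgggaaatgGAAACTGAAAatcttgttcc
Ifit3 (chr1:241527272-241527301, plus strand): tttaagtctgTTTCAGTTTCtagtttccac
Irf7 (chr1:205800073-205800102, minus strand): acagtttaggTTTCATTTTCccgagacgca

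The matches began 125 bases before the start in Bst2, 35 in Oas1a, 44 in Ifit3 and 69 in Irf7. These letters were not in the Mx1 window. Bst2 is the member with a matched motif that moved most between rats, so its upstream stretch (chr16:18254968-18255217, minus strand) is given whole, with both overlapping copies in capitals.
Bst2 upstream: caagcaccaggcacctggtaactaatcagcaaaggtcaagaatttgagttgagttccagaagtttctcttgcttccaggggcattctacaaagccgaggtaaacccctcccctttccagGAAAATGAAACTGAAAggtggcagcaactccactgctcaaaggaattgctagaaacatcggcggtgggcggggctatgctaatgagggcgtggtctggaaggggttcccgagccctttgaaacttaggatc

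Samples were dissected tissue, so that fewer cells of a type and less RNA per cell cannot be told apart. The hypothalamic origin was visible in the neuropeptide genes: Pmch, made in lateral hypothalamic neurons, had a mean signal of 12.97, and Hcrt, the orexin precursor of the same region, 10.74. The arrays of Chow 1 and Chow 4 carried more signal of leptomeningeal fibroblasts than the others. All 10 of 10 fibroblast markers varied between rats (4.48% of all probe sets did) and were called higher on chow (0.941% of all). Their mean deviation from the average array was 0.85 in Chow 1 and 0.66 in Chow 4. It was -0.20 in Chow 2, -0.44 in Chow 3 and -0.17 in Chow 5, and P rats lay between -0.70 and 0.42. Diet differences of interferon-induced genes that rest on Chow 1 or Chow 4 are given with and without these rats. Calls of other genes, these markers included, were not repeated without them.

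Mx1 and Isg15 were the only members whose standard deviation (SD) over the 10 rats exceeded 0.1, 2 of 11 probe sets, against 4.48% of all probe sets. Bst2 lay just below this limit at 0.097. Both varying genes were highest in the same pair of rats, Chow 4 and Powder 4, 1 of each diet. The other 8 probe sets, those of Ifit2, Ifit3, Irf7, Mx2, Oas1a and Usp18, were almost flat, with SD between 0.000184 and 0.000462. The summarization leaves a probe set flat where its probes share no signal, and 92.6% of all probe sets had an SD below 0.001, so that a flat member is one without a measured change and not one shown to be constant.

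Mx1, the antiviral GTPase with the widest spread of the 9 genes, read 6.58, 6.30, 6.59, 7.33 and 6.61 in Chow 1 to Chow 5. In Powder 1 to Powder 5 it read 6.46, 6.54, 6.84, 7.16 and 6.55. Chow 4 stood highest and Powder 4 next, while Chow 2 was lowest and the groups overlapped over most of their range. From lowest to highest the signal spanned 2.04-fold. Chow 4 lay 0.74 above the median of the 10 rats, a 1.68-fold level, and Powder 4 lay 0.58 above it, 1.49-fold. Powder 3 followed at 6.84, and the remaining 7 rats read 6.61 or less.

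Isg15, the ubiquitin-like modifier, read 7.32, 7.002, 7.16, 7.59 and 7.12 in Chow 1 to Chow 5. In the P group it read 7.20, 7.10, 7.34, 7.65 and 7.32. The order at the top was exchanged, with Powder 4 highest and Chow 4 next at a distance of 0.06, and Powder 3 followed again. Powder 4 lay 0.40 above the median of the 10 rats, a 1.31-fold level, and Chow 4 lay 0.34 above it, 1.26-fold. The other 8 rats lay between 7.002 and 7.34. Chow 2 was lowest here as for Mx1.

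Bst2, tetherin, read 7.77, 7.65, 7.66, 7.92 and 7.61 in Chow 1 to Chow 5, and 7.61, 7.68, 7.81, 7.77 and 7.71 in Powder 1 to Powder 5. Chow 4 was again highest, by 0.10 over the next rat, but that rat was Powder 3, and Powder 4 came after it, level with Chow 1. The whole span of Bst2 was 0.30, or 1.23-fold, and Powder 4 lay only 0.08 above the median.

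**Figure D1:**
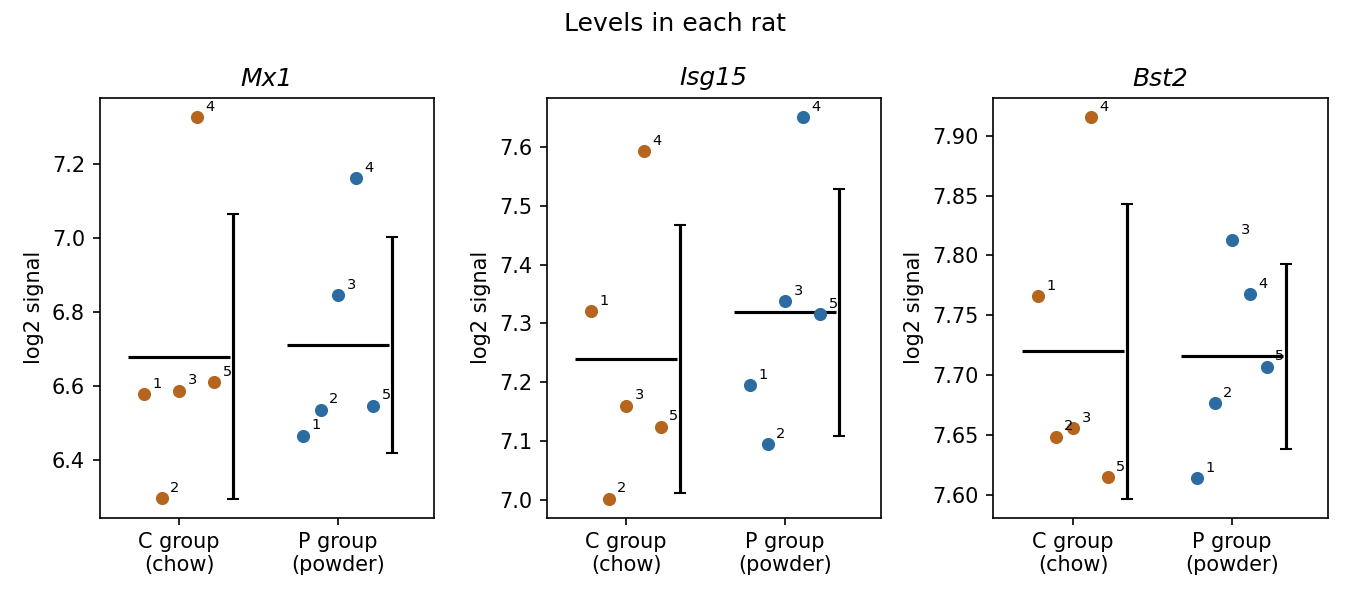
Log2 signal of Mx1, Isg15 and Bst2 in each rat (points, numbered by rat), with the group mean (line) and 1 SD on either side (bar), 5 rats per group. Chow 4 and Powder 4 sit above the other rats for Mx1 (7.33 and 7.16) and Isg15 (7.59 and 7.65), and for Bst2 Chow 4 alone does (7.92).

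Across the 10 rats Mx1 followed Isg15 with a Pearson r of 0.91 (Spearman rho 0.76), Mx1 followed Bst2 with 0.83 (rho 0.71) and Isg15 followed Bst2 with 0.80 (rho 0.78). These 3 relations share the same arrays and genes chosen with results of these arrays known, and they are given as a description with no p-value. Chow 4 and Powder 4 were the rats farthest from the median of the first gene named in each pair. In the other 8 rats r was 0.69, 0.65 and 0.74, so that the joint order extended beyond this pair of rats at a smaller size.

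The flat probe sets spanned at most 0.00118 from the lowest to the highest rat, and their mean levels lay between 6.14 and 7.24, below the median of all probe sets (7.37). Their order over the rats nevertheless had a common top. Chow 4 was highest in 7 of the 8, the exception being 1 of the probe sets of Mx2, where it held rank 5 and Chow 5 was highest. Among all 28736 probe sets of this flatness Chow 4 was highest in 9.27%. Powder 4 was among the 3 highest rats in 6 of the 8, against 37.1% of all flat probe sets.

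Over all 11 member probe sets Chow 4 was highest in 9 and Powder 4 in 1, against 3108 and 5083 of all 31042 probe sets. The pair held both top places in 6 of the 11, those of Mx1, Isg15, Oas1a and Usp18, 1 of Ifit2 and 1 of Mx2, against 4.94% of all probe sets and 6.33% of those with an SD above 0.1. Chow 2 was lowest in 5 of the 11, against 3428 of all 31042. The probe sets of 1 gene share their target, all 11 share the arrays, and the ranks are a description with no test. Whether an order at the fourth decimal of a log2 value follows the RNA was not tested.

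**Figure D2:**
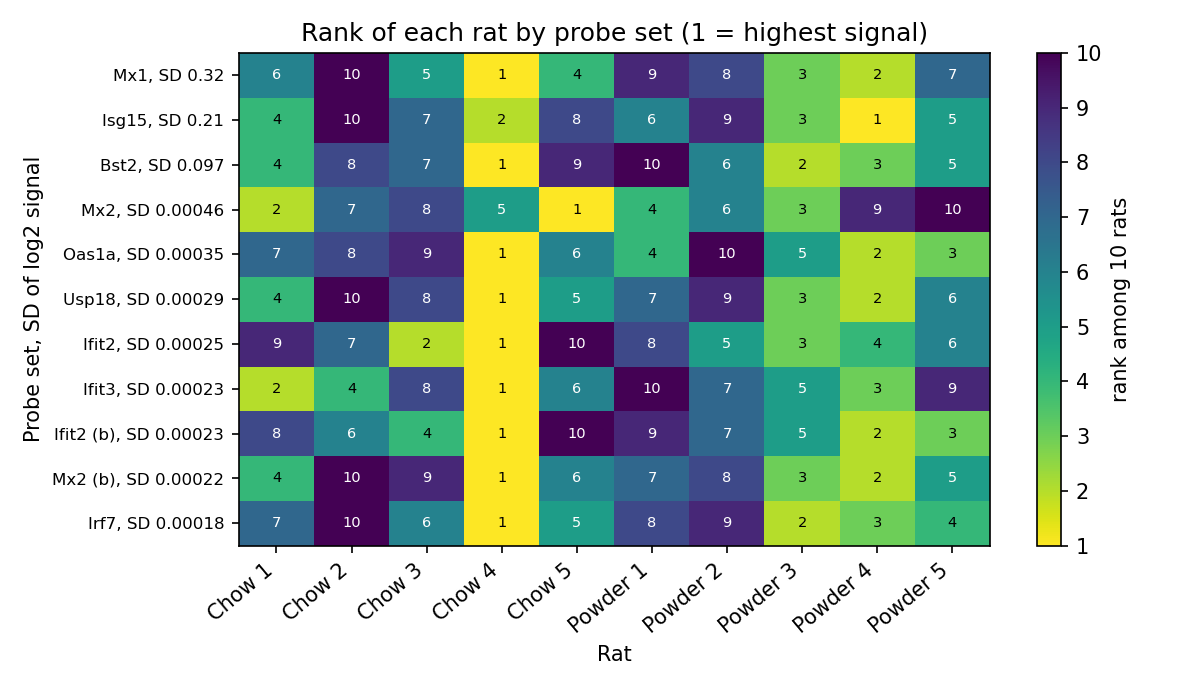
Rank of each rat (columns, 1 is the highest signal) in each of the 11 member probe sets (rows, in order of their SD over the 10 rats; a second probe set of a gene is marked b). Chow 4 holds rank 1 in 9 rows and Powder 4 rank 1 or 2 in 6, while only the first 3 rows have an SD near or above 0.1.

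The comparison of the groups asked whether food texture after weaning altered the level of these genes. The study's test, rank products with a limit of 0.05 on the false discovery rate (FDR), was used first. It called 0 of the 11 member probe sets higher on chow (0.941% of all probe sets) and 1, Isg15, lower (0.818% of all). By limma 0 of the 11 passed at an adjusted p below 0.05, as 0.0% of all probe sets did, and 0 had an unadjusted p below 0.05 (3.54% of all). No member had groups that did not overlap (0.432% of all). The median difference of the 11 was -3.5e-05, beside -2.7e-06 over all probe sets, 7 being lower in the C group and 4 higher.

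Isg15 averaged 7.24 ± 0.23 in C rats and 7.32 ± 0.21 in P rats (SD, n = 5 each), a difference of -0.079 (standard error, SE, 0.13; 95% interval -0.38 to 0.23) or 0.947-fold. Its FDR by rank products was 0.0431. The adjusted p of limma over all probe sets was 0.9995, and the exact two-sided permutation test over all 252 assignments of 5 against 5 rats gave p = 0.556. Of the 5 C rats 3 lay below the P mean. The difference was thus smaller than the spread within either group, and the call came from ranks alone. It lay close to the limit and was not stable. With 1 rat left out at a time Isg15 was called in 3 of 10 cases, those without Chow 1, Chow 4 or Powder 2. Without Powder 4 the difference turned to 0.0041. The call was also lost where the difference did not shrink, at -0.11 without Powder 1 (FDR 0.086) and -0.080 without Powder 5 (FDR 0.101).

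Mx1 averaged 6.68 ± 0.38 in C rats and 6.71 ± 0.29 in P rats (SD, n = 5 each), with a difference of -0.032 (SE 0.21; 95% interval -0.51 to 0.44). It was not called by rank products (FDR 0.193 for lower, 0.157 for higher) or by limma (adjusted p = 0.9995). Of the 5 C rats 4 lay below the P mean, and the remaining one was Chow 4. Without Chow 4 the difference was -0.19 and was called lower (FDR 0.0471), and without Powder 4 it was 0.081 and not called. The sign also turned without Chow 2, the lowest rat (0.064), and without Powder 3 (0.0018), neither called.

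Bst2 averaged 7.72 in both groups (SD 0.12 on chow, 0.08 on powder), and its difference of 0.0044 (SE 0.06; 95% interval -0.14 to 0.15) was not called. In the 8 flat probe sets no difference exceeded 0.00022 in size. Without Chow 4 and Powder 4 together, 0 of the 11 probe sets were called, with differences of -0.081 for Mx1, -0.084 for Isg15 and -0.031 for Bst2.

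**Figure D3:**
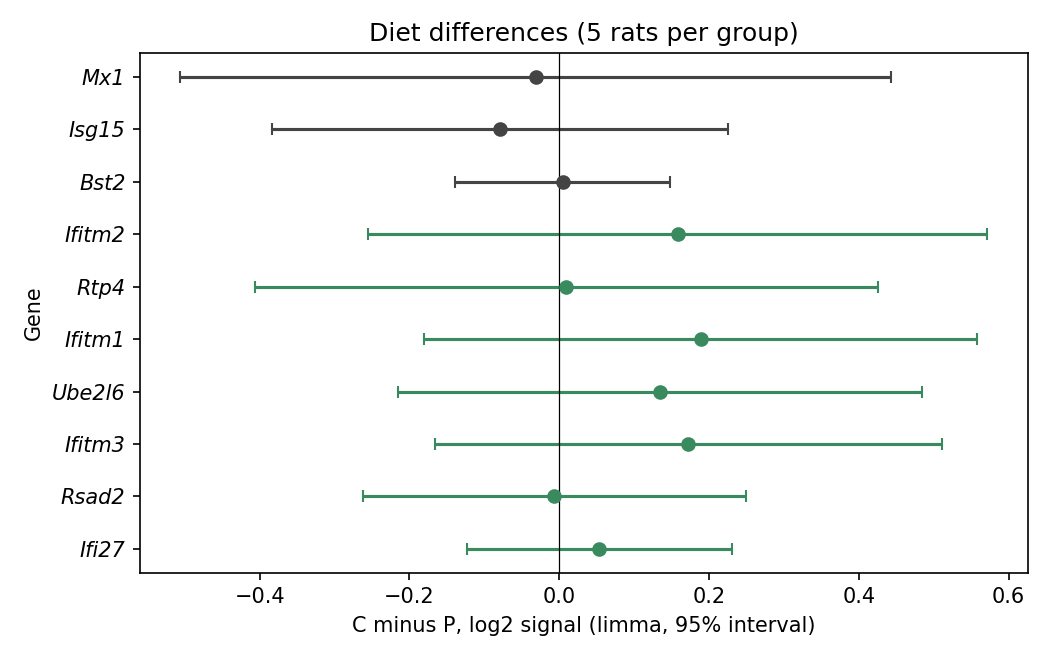
Diet difference (C minus P) in log2 signal (points) with the 95% interval of limma (bars), 5 rats per group, for Mx1, Isg15 and Bst2 (grey) and for the 7 varying genes of the wider pathway list (green). All 10 intervals span 0, the widest being that of Mx1 (-0.51 to 0.44).

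The wider pathway was read from a list of 108 further genes, of which 87 were measured by a probe set naming them alone, the one with the highest mean standing for a gene. Of these, 7 varied with an SD above 0.1 (4.48% of all probe sets did), 79 were flat with an SD below 0.001 and 1, B2m, lay between. Rank products called 4 of them higher on chow (0.941% of all probe sets) and 0 lower (0.818% of all), and limma called 0. Chow 4 was highest in 26 of the 87 and among the 3 highest rats in 57 (65.5%, against 29.4% of all probe sets), a description over genes that share the arrays.

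Genes that start the response were flat. This held for 10 of 10 sensing genes, among them Ifih1 and Rig1, the cytosolic sensors of viral RNA, and Irf3, the factor that starts interferon transcription. It held for 7 of 7 ligand and receptor genes, among them Ifnb1, which encodes interferon beta at a mean signal of 6.15, Ifng, which encodes interferon gamma at 5.92, and Ifnar1, a receptor chain, at 8.10. It also held for 12 of 12 genes of signal transduction, among them Stat2 and Irf9. None of these 29 genes was called. A flat value was also the rule over the whole array (92.6% of all probe sets), so that these counts are no result about the upstream genes.

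All 7 varying genes were themselves interferon-induced, 7 of 58 measured genes of that kind. Chow 4 was among the 3 highest rats in 7 of the 7 and highest in 4, beside 55.0% and 22.3% of all probe sets with an SD above 0.1. Rsad2, the antiviral enzyme viperin, had the pattern of Mx1 and Isg15. It read 7.50, 7.42, 7.65, 7.79 and 7.41 in Chow 1 to Chow 5 and 7.41, 7.35, 7.57, 7.87 and 7.61 in Powder 1 to Powder 5. Powder 4 and Chow 4 were its highest rats, and the groups differed by -0.01 (SE 0.11, not called).

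Ube2l6, the conjugating enzyme that transfers Isg15 to its targets, read 6.94, 6.74, 6.96, 7.26 and 7.02 in Chow 1 to Chow 5 and 6.55, 6.51, 7.04, 7.20 and 6.94 in Powder 1 to Powder 5. Chow 4 and Powder 4 were again its highest rats. Rank products called it higher on chow, at a difference of 0.13 (SE 0.15; FDR 0.0493; adjusted p of limma 0.9995), the opposite direction to Isg15. The call held in 4 of 10 cases with 1 rat left out and was lost under quantile normalization (FDR 0.0502). Among the cases that lost it were those without Chow 1 (0.145, FDR 0.083) and without Chow 4 (0.065, FDR 0.325). Without Chow 1 and Chow 4 together the difference was 0.056 and not called (FDR 0.595).

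Rtp4, a chaperone-like gene that interferon induces, was highest in Chow 4 (7.33), followed by Chow 1 (7.12), while the remaining C rats lay between 6.42 and 6.63 and P rats between 6.56 and 7.02. Its difference was 0.01 (SE 0.18) and not called. It turned to -0.07 without Chow 1 and to -0.12 without Chow 4, called lower each time (FDR 0.0333 and 0.0316). It also turned without Powder 1 (-0.053) and without Powder 2 (-0.013), neither called, so that its direction changed in 4 of 10 cases. Ifi27, a mitochondrial protein gene, stood at 11.13 in Chow 4, and the remaining 9 rats lay between 10.68 and 10.91 (difference 0.05, SE 0.08, not called).

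Ifitm1, Ifitm2 and Ifitm3, membrane proteins that block viral entry, were higher on chow by rank products, with differences of 0.19 (SE 0.16, FDR 0.0253), 0.16 (SE 0.18, FDR 0.0336) and 0.17 (SE 0.15, FDR 0.0428), 5 rats per group, with limma at an adjusted p of 0.9995 for each. Their high rats were another pair, Chow 1 and Chow 4: Ifitm2 read 8.90 and 8.67 there, while the remaining C rats lay between 8.10 and 8.28 and P rats between 8.01 and 8.60. Powder 4 was not raised, with Ifitm2 at 8.09, Ifitm1 at 6.84 and Ifitm3 at 8.55. The fibroblast markers were also highest in Chow 1 and Chow 4, and their part in the Ifitm differences was not tested. Without Chow 1 and Chow 4 together the differences turned to -0.02 for Ifitm1, -0.08 for Ifitm2 and -0.04 for Ifitm3, none called. The 3 genes are close relatives, and probes of 1 may bind RNA of another.

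**Figure D4:**
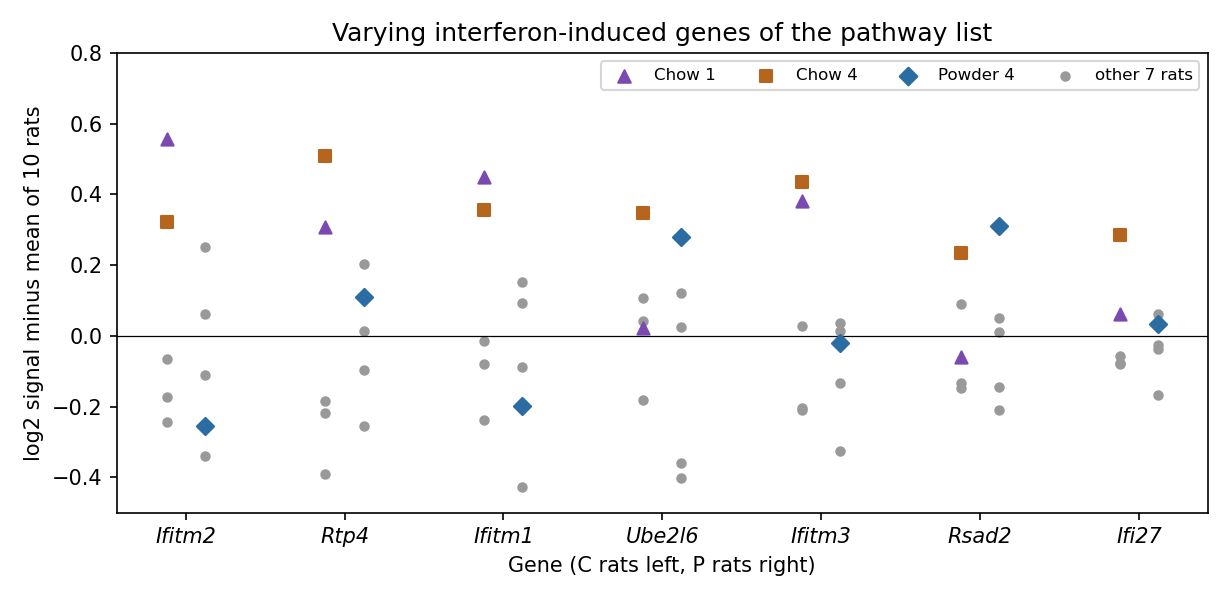
Log2 signal minus the mean of the 10 rats for the 7 varying genes of the pathway list, C rats to the left and P rats to the right of each gene. Chow 4 (squares) is among the 3 highest rats in 7 of the 7 genes, Powder 4 (diamonds) only in Rsad2 and Ube2l6, and Chow 1 (triangles) leads in Ifitm1 and Ifitm2.

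The letters of the response element core were found upstream of 26 of the 50 measured interferon-induced genes with a promoter window (52.0%, against 3.41% of all promoters). These genes were listed as interferon-induced beforehand, so that this share is no result of these arrays, and binding was not tested. Of the 7 varying genes 5 had a window, and 4 of them, Ifi27, Ifitm2, Ifitm3 and Rsad2, held the letters. Rsad2, the gene most like Mx1 and Isg15 among them, held them 147 bases before its start on the opposite strand.
Rsad2 (chr6:48788248-48788277, minus strand): ctggttcaacTTTCATTTTCagaaaacaga

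Class I antigen presentation genes, which interferon also raises, were divided. Of 5 genes measured 4 varied (4.48% of all probe sets), 2 called higher on chow (0.941% of all) and 2 lower (0.818% of all). RT1-T24-3 (0.39) and RT1-T24-4 (0.35) were higher, RT1-CE16 (-0.48) and RT1-S3 (-0.23, its probe set of highest mean) lower. By limma each of the 4 had an adjusted p of 0.9995. B2m did not vary and was not called. RT1-CE16 read 6.69 in Chow 4 and 6.66 in Powder 4 and was highest in Powder 5 (8.07), whereas RT1-T24-4 was highest in Chow 4 (8.44) and Powder 4 (8.37), next to Chow 1 (8.34). Chow 5, Powder 1, Powder 3 and Powder 5 were the high rats of RT1-CE16 (7.47 to 8.07, the remaining rats 6.53 to 6.72). The same rats were the low ones of RT1-T24-3 (6.37 to 7.47, the remaining rats 7.98 to 8.15). The opposite calls of these 2 genes thus followed the same division of the rats, with Chow 5 its only C rat. They were not repeated with rats left out.

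Other cell types were read beside these patterns. Over all probe sets 4.48% varied, and 0.941% were called higher and 0.818% lower on chow. Of 14 microglia and macrophage markers 6 varied, and their mean deviation was 0.13 in Chow 4 and 0.04 in Powder 4, beside 0.15 in Chow 1 and -0.34 in Chow 2, the remaining rats lying between -0.04 and 0.02. Chow 2 was the lowest rat in this mean, in Mx1 and in Isg15. Of 12 measured markers of T, B and NK cells 0 varied, with a mean signal of 6.52, and of 3 of neutrophils 0 varied, at 6.48. Of 8 endothelial markers 1, Kdr, varied, with 0.20 in Chow 4, 0.11 in Powder 4 and 0.16 in Chow 1. The fibroblast markers stood at 0.66 in Chow 4 and -0.41 in Powder 4. Of 5 oligodendrocyte markers 5 varied, and their mean deviation was highest in Chow 4 (0.22), with 0.17 in Chow 2, 0.10 in Powder 4 and -0.21 to 0.09 in the remaining rats. Of 6 astrocyte markers 4 varied and 2 were called higher on chow. Their mean deviation was 0.21 in Chow 1, -0.03 in Chow 4, -0.01 in Powder 4 and -0.11 to 0.06 in the remaining rats. Of 3 erythrocyte markers 2 varied and 2 were called higher on chow. Their mean deviation was 0.33 in Chow 3, -0.04 in Chow 4 and -0.06 in Powder 4. Of 11 hypothalamic neuron markers 8 varied and 6 were called lower on chow. Their mean deviation was -0.20 in Chow 1, -0.06 in Chow 4, -0.04 in Powder 4 and -0.05 to 0.20 in the remaining rats. The part of these cell types in the values of Mx1 and Isg15 was not tested.

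Genes of like pattern were sought among the 1013 varying probe sets of other single genes by the Pearson correlation with the mean of Mx1 and Isg15 over the 10 rats. The 10 most alike stood for Mettl17 (0.94), Gsta1 (0.92), Abhd1 (0.91 and 0.90 by its pair of probe sets), Zfp219 (0.90), Rsad2 (0.87), Arhgef40 (0.86), Ndrg2 (0.84), Fcer1g (0.81) and Rtp4 (0.80). Of these 9 genes, Rsad2 and Rtp4 are known to be induced by interferon. They were picked for this likeness, so that no test applies. Chow 4 and Powder 4 were the highest pair in 8 of the 10 probe sets, and Fcer1g and Rtp4, where Chow 1 came next to Chow 4, were the exceptions. Without that pair the correlation was 0.83 for Rtp4, 0.79 for Gsta1 and 0.77 for Fcer1g, an Fc receptor subunit of myeloid cells. It was 0.71 and 0.54 for the probe sets of Abhd1, 0.67 for Mettl17 and 0.54 for Rsad2. It was 0.23 for Zfp219, -0.06 for Ndrg2 and -0.38 for Arhgef40, whose likeness to the members rested on Chow 4 and Powder 4 alone. Rank products called 0 of the 10 between the diets, where 0.941% of all probe sets were called higher on chow and 0.818% lower. At such shares this count is no result about these genes. Zfp219 lay next to the limit (FDR 0.0529 for lower).

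Arhgef40 stood at 8.67 in Chow 4 and 8.70 in Powder 4, and the remaining 8 rats lay between 8.18 and 8.29, with a gap between. Zfp219 read 9.73 and 9.76 against 9.29 to 9.39, and Ndrg2 12.98 and 13.01 against 12.64 to 12.76. Mx1 differed from these genes in that its other 8 rats were themselves spread from 6.30 to 6.84.

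**Figure D5:**
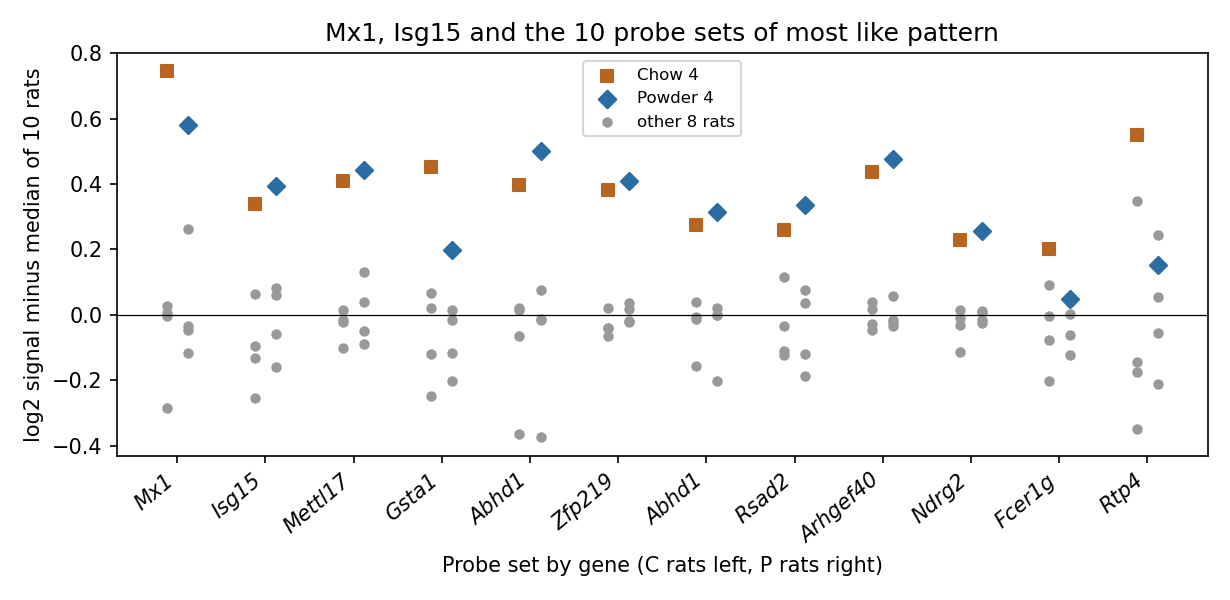
Log2 signal minus the median of the 10 rats for Mx1, Isg15 and the 10 probe sets of most like pattern, in order of their correlation, C rats to the left and P rats to the right of each. Chow 4 (squares) and Powder 4 (diamonds) lie above all other rats in Mx1, Isg15 and 8 of the 10, and the other 8 rats are packed closely for Zfp219, Arhgef40 and Ndrg2.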

How the data were processed

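Total RNA of each hypothalamus was hybridized to 1 array. The authors summarized the scans by FARMS, a factor-analysis method, and the deposited values are taken as log2 signals from their range, between 5.23 and 13.96, used here as they are. Sample names matched the table's columns to rats. Control probe sets (57) were left out, and 31042 were tested. Of these, 436 name several genes and 9780 none in the array annotation. Arrays have no read depth, so that 5 rats per group limit the precision. The p-values of limma and of the exact permutation test measure the spread between rats. The FDR of rank products comes from shuffling probe sets within arrays and does not measure that spread.

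For rank products (Python 3.11.15, numpy 2.4.6) all 25 pairs of 1 rat from each diet gave ranked differences, set against 100 permutations within arrays. The diet effect was also fitted with limma 3.58.1 (R 4.3.3), with Benjamini-Hochberg adjusted p over all probe sets. Both were run on simulated data with noise independent between probe sets and planted differences larger than those of the members. That run did not test calls that rest on single rats. All member genes were named, and from the pathway list each gene that varied or was called. The members, gene lists and tests were chosen with earlier results of these data known. Promoters came from RefSeq (GRCr8). Alternatives were quantile normalization, median centring, leaving out rats, filters on level and SD, stricter thresholds, limma with and without a replicate block, and exact permutation. Other permutation seeds and leaving out Chow 4 with Powder 4 were added after seeing the data.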

Additional observations from a re-analysis of the deposited data

How the results depend on the processing

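The calls were few and unstable, while the number of varying members held: 2 probe sets varied under quantile normalization, median centring and an SD limit of 0.2, 3 at a limit of 0.05, and 2 to 3 with 1 rat left out. With 1 rat left out, 0 to 2 members were called lower, 0 was called higher in each case, and 0 to 4 listed pathway genes were called. The difference then ranged from -0.19 (without Chow 4) to 0.081 (without Powder 4) for Mx1, from -0.17 (without Chow 4) to 0.0041 (without Powder 4) for Isg15, from -0.044 to 0.031 for Bst2, from -0.011 to 0.080 for Ifi27, from -0.066 to 0.070 for Rsad2 and from -0.12 to 0.11 for Rtp4. Of the called listed genes it ranged from 0.10 (without Chow 1) to 0.27 (without Chow 3) for Ifitm1, from 0.039 (without Chow 1) to 0.24 (without Powder 3) for Ifitm2, from 0.085 (without Chow 4) to 0.25 (without Chow 3) for Ifitm3 and from 0.051 (without Powder 2) to 0.22 (without Powder 4) for Ube2l6, and the calls held in 7, 6, 5 and 4 of 10 cases. Isg15 lost its call without Chow 2, Chow 3, Chow 5, Powder 1, Powder 3 or Powder 5 as well as without Powder 4. The rat that led most often led in 1 to 3 varying members. The cause of these moves was not tested. Without Chow 1 and Chow 4 together, 2 members were called lower, Mx1 at -0.21 and Isg15 at -0.22, and 1 listed gene was called, Rtp4, at -0.26. The differences of Bst2, Ifi27, Ifitm1, Ifitm2 and Ifitm3 turned to -0.076, -0.044, -0.016, -0.082 and -0.043. Powder 4 then led in both varying members. Without Chow 4 and Powder 4 together 0 members and 0 listed genes were called, Isg15 was at -0.084 (FDR 0.156), Bst2 at -0.031, Rsad2 at 0.011 and Rtp4 at -0.088, and Powder 3 led in both of the 2 varying members. A filter on mean level, a filter on SD above 0.1, an FDR below 0.01 and limma each gave 0 called members and 0 called listed genes. The level filter, at the median of 7.37, itself removed Isg15 and Mx1 and, of the called listed genes, Ifitm1 and Ube2l6, so that it says nothing about their calls. Isg15, at -0.079, had an adjusted p of 0.9995 by limma and was not called by exact permutation. Quantile normalization left 3 of the 4 calls among listed genes, without Ube2l6. The sample names give no meaning to the replicate numbers, and deviations of same-numbered rats correlated at -0.33 to 0.28. Whether the numbers stand for a pairing was not tested. With the replicate number as a block limma called 0 members and 0 listed genes, and Isg15 was at -0.079 (adjusted p = 0.995). Other permutation seeds left the calls as they were.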

Other observations

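Of the 9 genes of most like pattern 4, Mettl17, Ndrg2, Arhgef40 and Zfp219, lie within a run of 7 protein-coding genes in the GRCr8 annotation. This was noticed after their values were seen. Of the other 3 genes of the run, Slc39a2 was measured and was flat (SD 0.000176). Each of the 4 had its highest values in Powder 4 and Chow 4, in that order. Mettl17 read 8.29 and 8.26 there and 7.75 to 7.98 in the other 8 rats. Second probe sets of Mettl17 and Ndrg2 were flat (SD 0.000133 and 0.000219). The 4 genes were chosen for their likeness to Mx1 and Isg15, and that choice favored high values in this pair of rats. Over the 1391 probe sets with an SD above 0.1 the deviations of Chow 4 and Powder 4 from their group means correlated at 0.11.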
